A study of Mus musculus with 5 samples.

Results

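Kidneys of the UIRI model were examined for 10 genes that serve urea and water transport, osmolyte supply and the lining of the renal pelvis. The genes were chosen by name, as Slc14a1, Slc14a2, Slc5a3, Slc6a12, Akr1b3, Nfat5, Aqp1, Fxyd4, Upk1b and Psca, and all 10 were found among the 35478 genes listed in the deposited files. RNA-seq counts were available for 2 Prdm16fl/fl UIRI mice, numbered 1 and 3, and for 3 Ksp-Cre/Prdm16fl/fl UIRI mice, numbered 1, 2 and 3, with 1 kidney library per mouse. By the study's methods all 5 mice were male and 7 to 8 weeks old. The strain is C57BL/6J;129 in the methods and in the strain field of the labels, and C57BL/6J in the sample titles. Both alleles of Prdm16 carried loxP sites around exon 9 in every one of them. Ksp-Cre is driven by the promoter of kidney-specific cadherin, which is active in tubular epithelial cells. The study reports that PRDM16 was lost only from these cells. Its genotyping covered tubules, glomeruli, heart, liver, spleen and lung, and did not include the lining of the renal pelvis. In unilateral ischemia-reperfusion injury (UIRI), the vessels of the left kidney were clamped for 35 minutes at 38.5°C, the right kidney was taken out on day 10, and the mice were killed on day 11. No sham kidney was among the libraries, so every value describes an injured kidney.

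The renal medulla builds up a high concentration of salt and urea so that water can be drawn out of the collecting duct. Urea is recycled by UT-A (Slc14a2), in the collecting duct and the thin descending limb, and by UT-B (Slc14a1), in the descending vasa recta and in red blood cells. Medullary cells balance the outside salt with organic osmolytes: myo-inositol enters through Slc5a3, betaine through Slc6a12, and sorbitol is made from glucose by aldose reductase (Akr1b3), with NFAT5 as the transcription factor that switches on all of them under hypertonic stress. AQP1 is the water channel of the proximal tubule and thin descending limb, FXYD4 a regulator of the sodium pump in the collecting duct, uroplakin 1b (Upk1b) a plaque protein of the urothelium, and PSCA a surface protein found on urothelial and other epithelia.

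The methods give the cortex as the dissected tissue. The libraries carried abundant proximal tubule RNA, with the 10 proximal tubule markers summing to between 5724 and 25464 CPM (counts per 1000000 TMM-scaled counts). Kap alone made up between 52.3% and 82.0% of that sum, and how much medulla each piece of tissue held was not measured. Total counts ran from 14939040 to 16425161 per library. Ksp-Cre/Prdm16fl/fl mouse 3 stood apart on the first principal component, at 72.2 against -36.2 to -1.92 for the other 4 libraries, and values that moved by over 1.5 times when it was left out are given both ways for the 10 genes and the list medians. Prdm16 itself was at 25.3 and 20.02 CPM in the Prdm16fl/fl mice and between 17.0 and 18.0 CPM in the Ksp-Cre/Prdm16fl/fl mice (a log2 fold change of -0.38 with a standard error, SE, of 0.15 and an adjusted p = 0.259), a count that does not separate exon 9. Since the libraries are bulk tissue, fewer cells of a type and less RNA per cell cannot be told apart in any value given here.

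Promoter sequences were read for the 5 members that have an entry in the RefSeq table (GRCm38.p6), because 3 of them (Aqp1, Fxyd4 and Nfat5) are members whose libraries did not overlap between the genotypes and the other 2 are osmolyte transporters, one (Slc5a3) well expressed and one (Slc6a12) close to 0. Each line gives the 250 bases before the annotated start, 5′ to 3′ on the strand of the gene. Capitals mark TGGAAA, the core that NFAT proteins recognise, and the GC box GGGCGG, each searched on both strands.
Nfat5, chr8:107293220-107293469, plus strand: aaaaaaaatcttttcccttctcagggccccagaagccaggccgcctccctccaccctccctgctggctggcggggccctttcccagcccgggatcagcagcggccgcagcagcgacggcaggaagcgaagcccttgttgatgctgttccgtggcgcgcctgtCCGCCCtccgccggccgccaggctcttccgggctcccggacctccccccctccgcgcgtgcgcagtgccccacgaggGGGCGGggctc
Slc5a3, chr16:92058072-92058321, plus strand: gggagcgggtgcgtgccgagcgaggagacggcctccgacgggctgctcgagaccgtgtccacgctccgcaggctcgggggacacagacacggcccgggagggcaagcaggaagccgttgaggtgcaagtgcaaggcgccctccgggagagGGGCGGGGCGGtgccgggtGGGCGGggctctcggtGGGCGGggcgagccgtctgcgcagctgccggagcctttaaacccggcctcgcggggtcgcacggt
Slc6a12, first of 5 annotated starts, chr6:121342324-121342573, plus strand: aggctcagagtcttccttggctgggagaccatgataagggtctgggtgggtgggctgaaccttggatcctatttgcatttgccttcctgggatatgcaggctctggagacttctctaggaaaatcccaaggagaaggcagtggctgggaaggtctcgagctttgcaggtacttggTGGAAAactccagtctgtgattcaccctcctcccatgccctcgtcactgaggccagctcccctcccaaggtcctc
Aqp1, chr6:55336049-55336298, plus strand: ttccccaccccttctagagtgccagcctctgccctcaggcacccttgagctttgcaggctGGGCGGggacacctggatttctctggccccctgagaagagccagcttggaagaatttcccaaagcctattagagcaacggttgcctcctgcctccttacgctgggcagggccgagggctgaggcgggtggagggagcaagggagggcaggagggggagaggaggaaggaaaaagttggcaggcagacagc
Fxyd4, chr6:117937336-117937585, minus strand: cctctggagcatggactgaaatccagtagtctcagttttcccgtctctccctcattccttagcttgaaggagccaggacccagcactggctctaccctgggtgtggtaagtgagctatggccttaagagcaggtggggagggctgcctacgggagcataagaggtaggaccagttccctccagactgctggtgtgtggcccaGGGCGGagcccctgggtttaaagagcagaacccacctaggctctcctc

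The windows of Nfat5 and Slc5a3 were the richest in G and C, at 71.6% and 74.8%, where the median of all 32851 RefSeq windows was 52.4%. Slc5a3 held 4 copies of GGGCGG, of which one pair overlaps, and Nfat5 held 2. GGGCGG was found in 32.7% of all windows of this length. TGGAAA was found in 1 of the 9 windows of the 5 members, that of Slc6a12 printed above, and in 18.6% of all windows. These are letter matches in a short window and not measured sites.

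Compared by TPM, the count per length, the members spanned a wide range of levels. Aqp1 was highest at 235 ± 92.5 TPM (SD, n = 5 mice of both genotypes), followed by Akr1b3 at 116 ± 2.88, Fxyd4 at 43.9 ± 10.7, Slc5a3 at 31.6 ± 7.37 and Nfat5 at 23.1 ± 4.72 TPM. Psca at 4.38 ± 0.903, Slc14a2 at 4.3 ± 4.18, Slc14a1 at 1.33 ± 0.435, Upk1b at 0.700 ± 0.881 and Slc6a12 at 0.0905 ± 0.125 TPM were low. Neighbours in this order overlapped in their range over the 5 mice at every step except from Akr1b3 to Fxyd4 and from Nfat5 to Psca. The order by pooled mean held in neither genotype: in the Prdm16fl/fl mice the mean of Slc14a2, 0.891 TPM, was below those of Upk1b, 1.62 TPM, and Slc14a1, 1.57 TPM, and in the Ksp-Cre/Prdm16fl/fl mice, at 6.57 TPM, it was above that of Psca, 4.64 TPM. The narrowest range belonged to Akr1b3, whose highest TPM was 1.06 times its lowest, and the widest among members seen in every library to Slc14a2, at 92.4 times.

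Between the genotypes, 9 of the 10 members could be tested with edgeR's quasi-likelihood test, since Slc6a12 did not pass the filter on low counts. The threshold was an adjusted p under 0.05 and a change of 1 or more, up or down, in log2 fold change (log2FC, Ksp-Cre/Prdm16fl/fl over Prdm16fl/fl). None of the 9 reached it, beside 0.708% of the 16394 genes tested (0.0793% higher and 0.628% lower). None had an adjusted p under 0.05 alone either, beside 0.976% of all genes. At an unadjusted p of 0.05 there were 5 of the 9, beside 18.8% of all genes tested, and DESeq2 called 1, Upk1b, beside 3.06% of the genes it tested. The 3 Ksp-Cre/Prdm16fl/fl mice lay above both Prdm16fl/fl mice for 2 members (Slc14a2 and Nfat5), as they did for 20.3% of all genes tested. They lay below both for 3 members (Aqp1, Fxyd4 and Upk1b), as for 21.3% of all genes tested. The remaining 4 tested members overlapped between the genotypes.

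**Figure D1:**
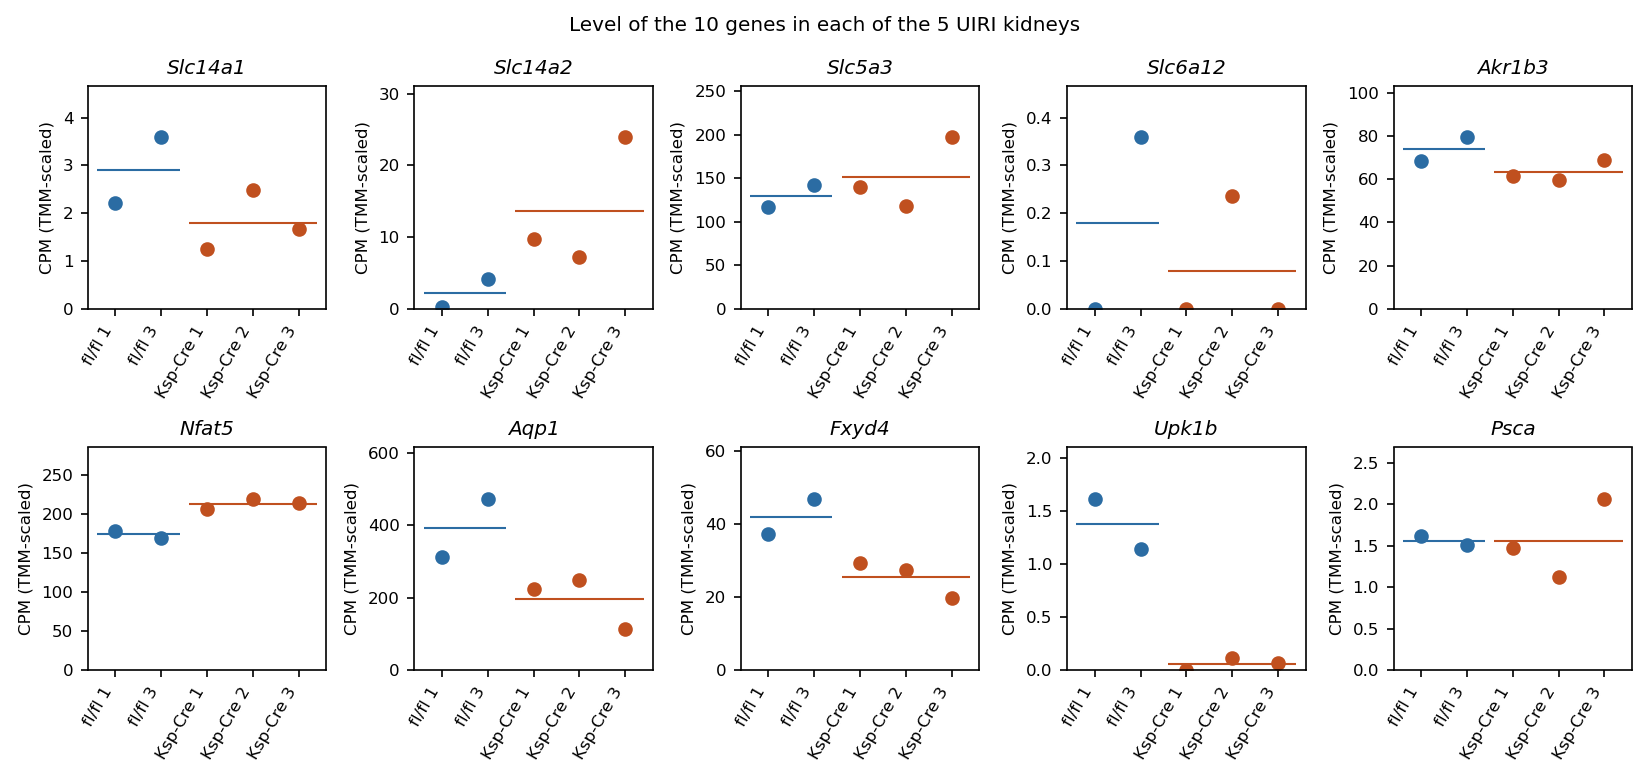
Level of each of the 10 genes in each kidney library, in CPM on a linear axis that starts at 0, with Prdm16fl/fl mice in blue, Ksp-Cre/Prdm16fl/fl mice in orange, and a line at the mean of each group. Slc14a2 reaches 23.9 CPM in Ksp-Cre/Prdm16fl/fl mouse 3 from 0.270 CPM in Prdm16fl/fl mouse 1, while Upk1b is at or under 0.118 CPM in all 3 Ksp-Cre/Prdm16fl/fl mice.

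The urea transporters lay next to each other on the minus strand of chromosome 18 (Slc14a1 from 78143306 to 78185334 and Slc14a2 from 78189359 to 78640165 in the files' coordinates), and their values pointed in opposite directions. Slc14a2 had 4 and 58 counts in Prdm16fl/fl mice 1 and 3, which is 0.270 and 4.16 CPM. Mice 1 to 3 of the Ksp-Cre/Prdm16fl/fl group had 171, 123 and 359 counts, or 9.71, 7.27 and 23.9 CPM. Every Ksp-Cre/Prdm16fl/fl library was thus above both Prdm16fl/fl libraries, though the latter were farther apart from each other in CPM than the nearest libraries of the opposite groups. The mean was 2.22 ± 2.75 CPM (SD, n = 2) against 13.6 ± 8.99 CPM (SD, n = 3), a log2FC of 2.63 or 6.18-fold (SE 0.998, adjusted p = 0.237). The estimate leaned on single mice: it was 5.61 without Prdm16fl/fl mouse 3, 1.7 without Prdm16fl/fl mouse 1 and 1.97 without Ksp-Cre/Prdm16fl/fl mouse 3, and it stayed positive in each of the 5 fits with 1 mouse left out. The count covers all UT-A isoforms and does not say which segment they came from.

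Slc14a1 had the lower mean in Ksp-Cre/Prdm16fl/fl mice, and its groups overlapped. It had 33 and 50 counts in the Prdm16fl/fl mice and 22, 42 and 25 in the Ksp-Cre/Prdm16fl/fl mice, or 2.22 and 3.59 against 1.25, 2.48 and 1.67 CPM. Ksp-Cre/Prdm16fl/fl mouse 2 lay inside the range of the Prdm16fl/fl mice, and the log2FC of -0.69 (SE 0.41, adjusted p = 0.414) was under 2 SE. Leaving out Prdm16fl/fl mouse 3 gave -0.31, and leaving out Prdm16fl/fl mouse 1 gave -0.996. Within a library, the ratio of Slc14a2 to Slc14a1 by TPM does not depend on how libraries are scaled. It was 0.0929 and 0.889 in the Prdm16fl/fl mice and 5.96, 2.25 and 11.0 in the Ksp-Cre/Prdm16fl/fl mice. Slc14a2 RNA was thus the more abundant of the pair in each Ksp-Cre/Prdm16fl/fl library. Slc14a1 RNA was the more abundant in Prdm16fl/fl mouse 1, with 33 counts against 4 of Slc14a2. In Prdm16fl/fl mouse 3 the ratio rests on 58 counts of Slc14a2 and 50 of Slc14a1, too close to order the pair. UT-B is also a red cell protein, and the red blood cell markers were set beside it. All 5 were higher in every Ksp-Cre/Prdm16fl/fl library than in both Prdm16fl/fl libraries. They summed to 6.67 and 10.8 CPM against 40.5 to 151 CPM, and their part in the Slc14a1 values was not tested.

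Markers of the segments that carry UT-A were not uniformly higher. Of 7 thin limb markers tested, 5 had a positive and 2 a negative log2FC, with a median of 0.36 (0.61 without Ksp-Cre/Prdm16fl/fl mouse 3) beside 0.038 over all genes tested, and 0 were called by edgeR or DESeq2, with 2 at an unadjusted p of 0.05. Cryab, a small heat shock protein that is also on the osmotic response list, was at 92.6 and 144 CPM against 146, 136 and 199 CPM, and Bst1, a surface enzyme, at 8.43 and 21.3 against 27.5, 23.8 and 21.1 CPM. All 9 principal cell markers of the collecting duct had a negative log2FC, with a median of -0.60 (-0.50 without mouse 3), 0 called by edgeR, 1 by DESeq2 (Aqp4, a basolateral water channel named after its values were seen) and 4 at an unadjusted p of 0.05. Aqp2, the vasopressin-regulated water channel of principal cells, was at 132 CPM in both Prdm16fl/fl mice and at 132, 57.1 and 153 CPM in the Ksp-Cre/Prdm16fl/fl mice. The ratio of Slc14a2 to Aqp2 by TPM was higher in each Ksp-Cre/Prdm16fl/fl library, at 0.0199, 0.0346 and 0.0426, than in the Prdm16fl/fl libraries, at 0.000557 and 0.00860. How much of the cortex-medulla border a piece of tissue held was not recorded in the labels, and its part in the Slc14a2 values was not tested.

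**Figure D2:**
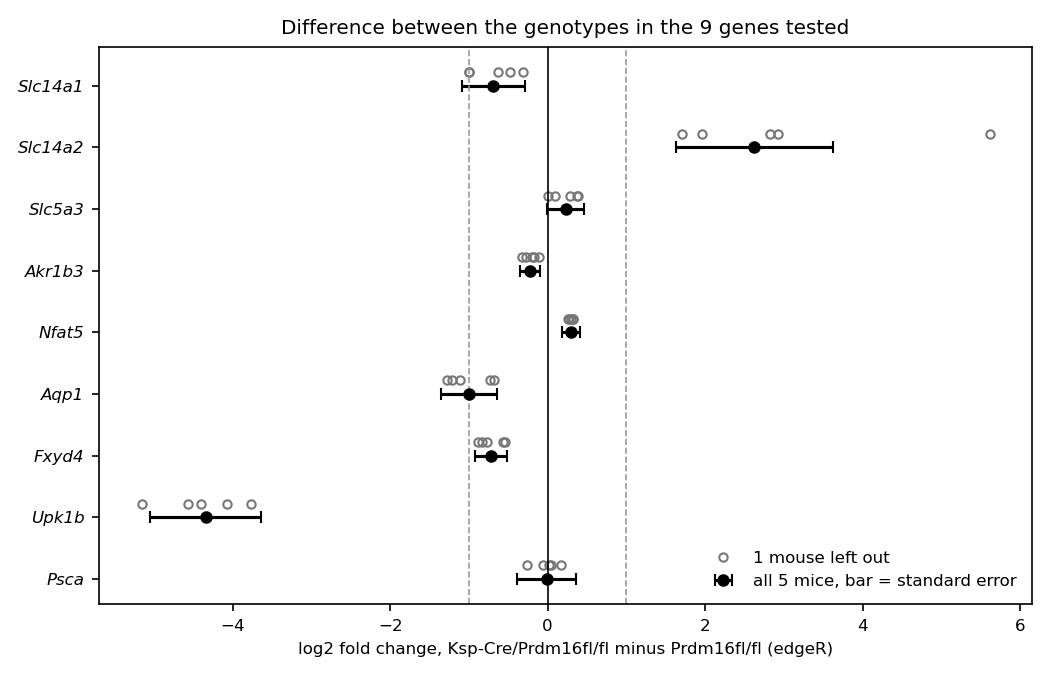
Log2FC of the 9 tested genes, Ksp-Cre/Prdm16fl/fl minus Prdm16fl/fl, from edgeR with all 5 mice (black, bar of 1 SE) and with each mouse left out in turn (open circles), with dashed lines at a change of 1 in either direction. Upk1b stays between -5.16 and -3.77 and Slc14a2 between 1.7 and 5.61, while the circles of Psca lie on both sides of 0.

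Among the osmolyte genes, Nfat5 separated the genotypes by a small margin, Slc5a3 and Akr1b3 overlapped between them, and Slc6a12 was too low to test. Nfat5 (chromosome 8, 108020072 to 108106149) had 177 and 170 CPM in the Prdm16fl/fl mice, against 206, 219 and 214 CPM in the Ksp-Cre/Prdm16fl/fl mice. The mean was 173 ± 5.48 CPM (SD, n = 2) against 213 ± 6.60 CPM (SD, n = 3), and 2 mice give little measure of spread. Of all genes tested, 16.4% had a smaller edgeR p than Nfat5. The log2FC of 0.30 (SE 0.11, adjusted p = 0.242) stayed between 0.26 and 0.33 with any 1 mouse left out. Scaling by library size, which moved the median of all genes from 0.038 to 0.15, gave 0.41.

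Slc5a3 (chromosome 16, 91855210 to 91884361), the myo-inositol transporter, was at 117 and 141 CPM in the Prdm16fl/fl mice and at 139, 118 and 197 CPM in the Ksp-Cre/Prdm16fl/fl mice. Only mouse 3 of the latter lay outside the Prdm16fl/fl range, and the log2FC of 0.23 (SE 0.24, adjusted p = 0.638) was 0.0019 without that mouse. Slc5a3 shares 145 bases of exon with Mrps6, a mitochondrial ribosomal protein gene on the same strand, out of a merged length of 10913 bases, and reads there cannot be assigned to either. Akr1b3 (chromosome 6, 34280865 to 34294424) was the steadiest member by TPM, at 112 and 118 TPM against 118, 114 and 118 TPM. In CPM it was at 68.2 and 79.4 against 61.6, 59.5 and 69.0 (log2FC -0.22, SE 0.13, adjusted p = 0.407, and -0.11 without Prdm16fl/fl mouse 3), whereas the log2 ratio of mean TPM was 0.021, so its direction depended on the scale. Slc6a12, the betaine transporter, was close to 0 in these libraries. It had 0 and 5 counts in the Prdm16fl/fl mice and 0, 4 and 0 counts in the Ksp-Cre/Prdm16fl/fl mice. The 3 libraries with no count allow a level of up to 0.170 to 0.202 CPM, taking 3 counts as the limit in each, and no fold change is given.

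Other genes of the hypertonic response were followed as a list of 12, all of which were tested. Of these, 9 had a positive and 3 a negative log2FC, with a median of 0.24 (0.13 without Ksp-Cre/Prdm16fl/fl mouse 3) beside 0.038 for all genes tested. The list mixes genes of unlike roles, among them an enzyme that removes sorbitol, so its median does not measure the strength of the response. One gene of the list passed the threshold: Sord, sorbitol dehydrogenase, which turns the sorbitol made by aldose reductase into fructose. Sord fell in the Ksp-Cre/Prdm16fl/fl mice. It was at 893 and 868 CPM in the Prdm16fl/fl mice against 390, 431 and 456 CPM, a log2FC of -1.05 (SE 0.14, adjusted p = 0.0412). With Prdm16fl/fl mouse 1 or 3 or Ksp-Cre/Prdm16fl/fl mouse 1 or 2 left out, edgeR called 0 of all genes, Sord included, while its log2FC stayed between -1.10 and -0.99 in all 5 fits with 1 mouse left out. It was called without Ksp-Cre/Prdm16fl/fl mouse 3 (adjusted p = 0.000888). Sord is also abundant in the proximal tubule, whose markers were lower in the same libraries, and their part in it was not tested. DESeq2 called Sord and 1 more gene of the list, Hspa1b, an inducible heat shock protein named after its values were seen. Hspa1b was at 27.2 and 22.7 CPM against 65.3, 49.1 and 42.6 CPM (log2FC 1.07, adjusted p = 0.0746 by edgeR and 0.00128 by DESeq2). Slc6a6, the taurine transporter, was at 343 and 326 CPM against 373, 418 and 648 CPM (log2FC 0.52, adjusted p = 0.340), with a log2FC of 0.24 once mouse 3 of the Ksp-Cre/Prdm16fl/fl group was left out. Slc38a2, an amino acid transporter induced by hypertonicity, was at 125 and 115 CPM against 206, 157 and 285 CPM (log2FC 0.85, adjusted p = 0.164). Of the 12 genes, 5, among them Hspa1b, Slc6a6 and Slc38a2, were higher in every Ksp-Cre/Prdm16fl/fl library than in both Prdm16fl/fl libraries. In all genes tested that share was 20.3%. Lower in every one were 2, Sord and Ranbp3l, beside 21.3% of all genes tested. Ranbp3l, named after its values were seen, was at 13.2 and 15.1 CPM against 7.78, 7.56 and 8.80 CPM. Its log2FC was -0.82, short of the limit on the fold (adjusted p = 0.0850 by edgeR and 0.0133 by DESeq2). In Slc6a6 and Slc38a2, as in Slc5a3 and Slc14a2, Ksp-Cre/Prdm16fl/fl mouse 3 held the highest value of the 5 libraries.

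**Figure D3:**
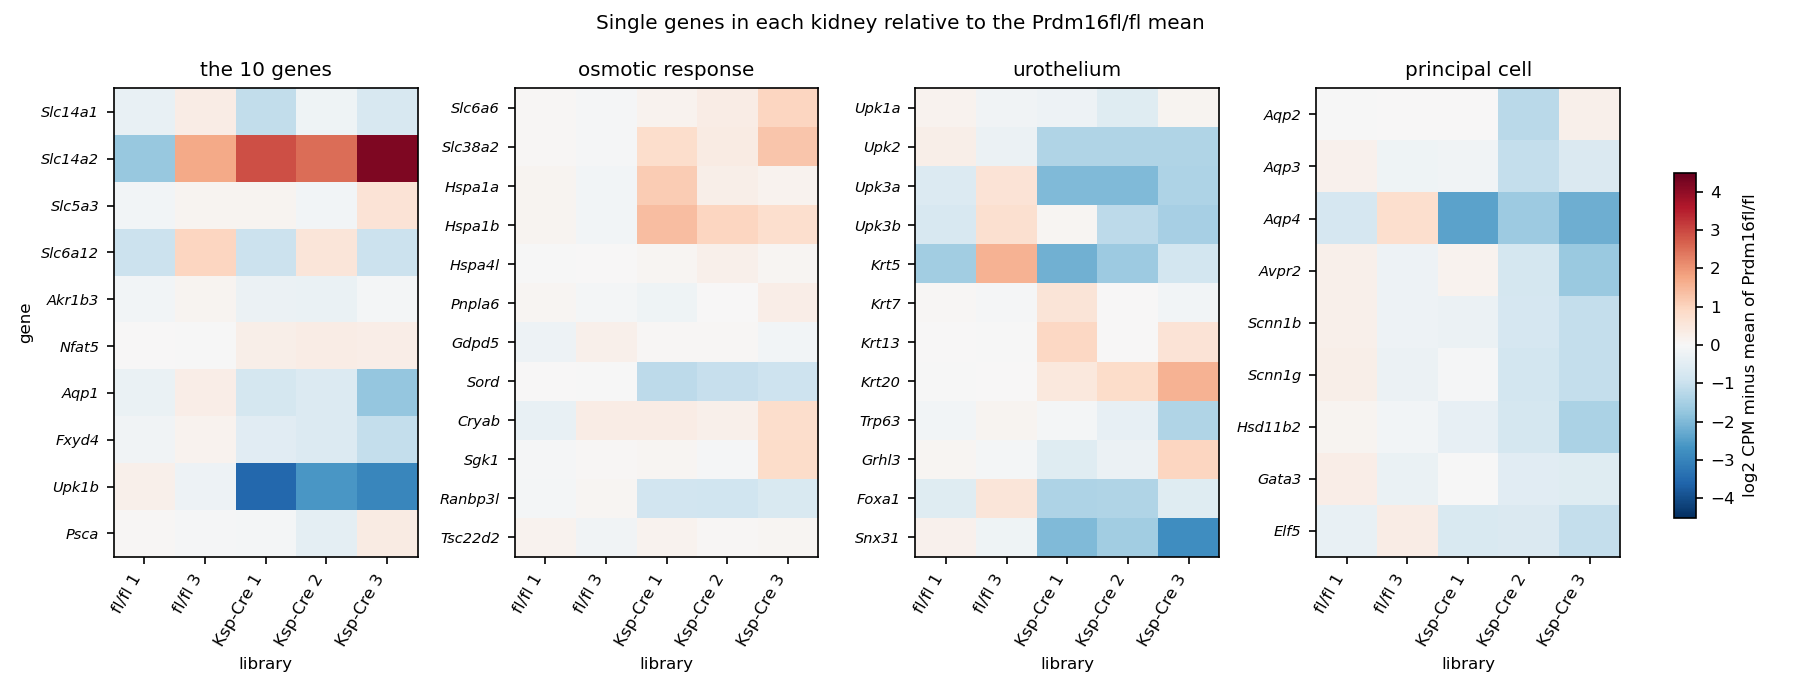
Each kidney's log2 CPM minus the mean of the 2 Prdm16fl/fl libraries, for the 10 genes and for the osmotic response, urothelium and principal cell genes, with red for higher and blue for lower. Slc14a2 stands at 4.2 in Ksp-Cre/Prdm16fl/fl mouse 3 and Upk1b at -2.94 in the same library, and genes with few counts, such as Upk2 and Krt13, take their colour from a few reads.

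The water channel and the sodium pump regulator both had lower values in every Ksp-Cre/Prdm16fl/fl mouse, without reaching the threshold. Aqp1 (chromosome 6, 55313284 to 55325540) had 313 and 472 CPM in mice 1 and 3 of the Prdm16fl/fl group, against 224, 250 and 114 CPM in mice 1 to 3 of the Ksp-Cre/Prdm16fl/fl group. All 3 of the latter lay under both of the former, with mouse 3 the lowest, and the mean of 393 ± 112 CPM (SD, n = 2) stood against 196 ± 72.0 CPM (SD, n = 3). With an SE of 0.35 the log2FC came to -1.004 (adjusted p = 0.211). It was -0.73 with an adjusted p = 0.0250 without Ksp-Cre/Prdm16fl/fl mouse 3, where 18.9% of all genes passed an adjusted p of 0.05 and the limit on the fold was not met. Aqp1 belongs to the proximal tubule as well as the thin limb, and all 10 proximal tubule markers were lower, none of them overlapping between the genotypes, with a median of -1.40. They summed to 19985 and 25464 CPM in the Prdm16fl/fl mice and to 5724, 7212 and 9025 CPM in the Ksp-Cre/Prdm16fl/fl mice, and no marker was at 0. Kap, an androgen-regulated kidney protein, made up between 52.3% and 82.0% of that sum. Without Kap the sums were 7478 and 7237 CPM against 2728, 3091 and 1623 CPM, so Ksp-Cre/Prdm16fl/fl mouse 3, highest of its group with Kap, was lowest without it. One of the 10, Slc22a8, an organic anion transporter, fell past the threshold (log2FC -2.68, SE 0.22, adjusted p = 0.0242). DESeq2 called 7 of the 10, and 9 had an unadjusted p under 0.05 in edgeR. Their part in the Aqp1 values was not tested.

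Fxyd4 (chromosome 6, 117910519 to 117914668) was at 37.1 and 46.9 CPM in the Prdm16fl/fl mice and at 29.3, 27.3 and 19.8 CPM in the Ksp-Cre/Prdm16fl/fl mice. The groups did not overlap, and the mean was 42.0 ± 6.87 against 25.5 ± 5.04 CPM, a log2FC of -0.72 (SE 0.21, adjusted p = 0.148). Without Ksp-Cre/Prdm16fl/fl mouse 3 it was -0.56 with an adjusted p = 0.0221. In that fit 18.9% of all genes passed an adjusted p of 0.05, and Fxyd4 did not meet the limit on the fold. The 9 principal cell markers, expressed in the same cells, summed to 740 and 615 CPM against 586, 364 and 395 CPM, and none was at 0. Hsd11b2, which shields the mineralocorticoid receptor from glucocorticoids, was at 277 and 229 CPM against 197, 147 and 94.7 CPM, and Scnn1b, a subunit of the epithelial sodium channel, at 113 and 84.0 against 80.8, 58.2 and 46.3 CPM. Aqp3, the basolateral water channel, was at 84.1 and 65.7 against 66.0, 35.2 and 46.8 CPM. Fxyd4 and Slc14a2 are both collecting duct genes, Slc14a2 also of the thin descending limb, and their values pointed in opposite directions. Their ratio by TPM, Slc14a2 over Fxyd4, was 0.00243 and 0.0297 in the Prdm16fl/fl mice. It was 0.111, 0.0888 and 0.404 in the Ksp-Cre/Prdm16fl/fl mice. Which segments the RNA of each gene came from is not known, and the part of tissue composition was not tested.

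The urothelial genes parted from each other. Upk1b (chromosome 16, 38593544 to 38620565) had 24 and 16 counts in Prdm16fl/fl mice 1 and 3 and 0, 2 and 1 counts in Ksp-Cre/Prdm16fl/fl mice 1, 2 and 3. Its level was 1.62 and 1.15 CPM against 0, 0.118 and 0.0666 CPM, so the groups did not overlap and all 3 Ksp-Cre/Prdm16fl/fl libraries were at or under the limit of 3 counts. The fitted log2FC was -4.34 (SE 0.70, adjusted p = 0.0541), just outside the threshold, and with so few counts it depends on the prior count of the fit. From the summed counts, 40 against 3, the level was 23.0 times higher in Prdm16fl/fl mice, with an exact 95% counting interval from 7.31 to 116 that leaves out the spread between mice. Upk1b was called by DESeq2 (log2FC -4.51, adjusted p = 0.00346), without the filter on low counts (adjusted p = 0.0286) and in the fit that left out mouse 3 of the Ksp-Cre/Prdm16fl/fl group (adjusted p = 0.00520), where 4.53% of all genes passed. Without the filter 1.12% of all genes did.

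Psca (chromosome 15, 74586688 to 74588914) did not share this pattern. It had 24 and 21 counts in the Prdm16fl/fl mice and 26, 19 and 31 in the Ksp-Cre/Prdm16fl/fl mice, or 1.62 and 1.51 against 1.48, 1.12 and 2.07 CPM. The groups overlapped, the log2FC was -0.013 (SE 0.37, adjusted p = 0.988), and its sign changed with the scaling. It was -0.26 with mouse 3 of the Ksp-Cre/Prdm16fl/fl group left out. By TPM, Upk1b stood at 0.455 and 0.347 of the level of Psca in the Prdm16fl/fl mice, and at 0, 0.0479 and 0.0147 in the Ksp-Cre/Prdm16fl/fl mice.

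The other uroplakins and urothelial markers were sparse. Of 12 on the list, 5 had enough counts to be tested, and 0 of them were called by edgeR, with 2 at an unadjusted p of 0.05. DESeq2 called 2, Krt20 and Snx31. There were 2 with a positive and 3 with a negative log2FC and a median of -0.22. Upk1a, the partner protein of a different uroplakin pair, was at 2.49 and 2.01 CPM against 1.87, 1.48 and 2.47 CPM. Snx31, a sorting nexin found with uroplakins in umbrella cells, was at 10.4 and 7.75 CPM against 2.16, 2.95 and 1.20 CPM (log2FC -2.10, SE 0.39, adjusted p = 0.0646). The 7 genes too low to test are all named, after their values were seen. Upk2 had 4 and 2 counts against 0 in each Ksp-Cre/Prdm16fl/fl mouse, Upk3a 3 and 9 against 0, 0 and 1, and Upk3b 3 and 11 against 8, 2 and 1. Krt5, a keratin of basal urothelium, had 1 and 22 counts against 0, 1 and 3, and Krt13 had 0 and 0 against 2, 0 and 1. The transcription factors Foxa1 and Grhl3 had 3 and 8 against 1, 1 and 3, and 5 and 4 against 3, 4 and 11. The keratins Krt7 and Krt20, which tubule cells also express, made up most of the list, whose sum was 246 and 234 CPM against 337, 279 and 336 CPM. Krt7 was at 168 and 156 against 244, 164 and 150 CPM, and Krt20 at 61.2 and 61.9 against 85.2, 108 and 180 CPM. No gene of the list was at 0 in all 5 libraries, and how much pelvic lining each piece of tissue held was not recorded.

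**Figure D4:**
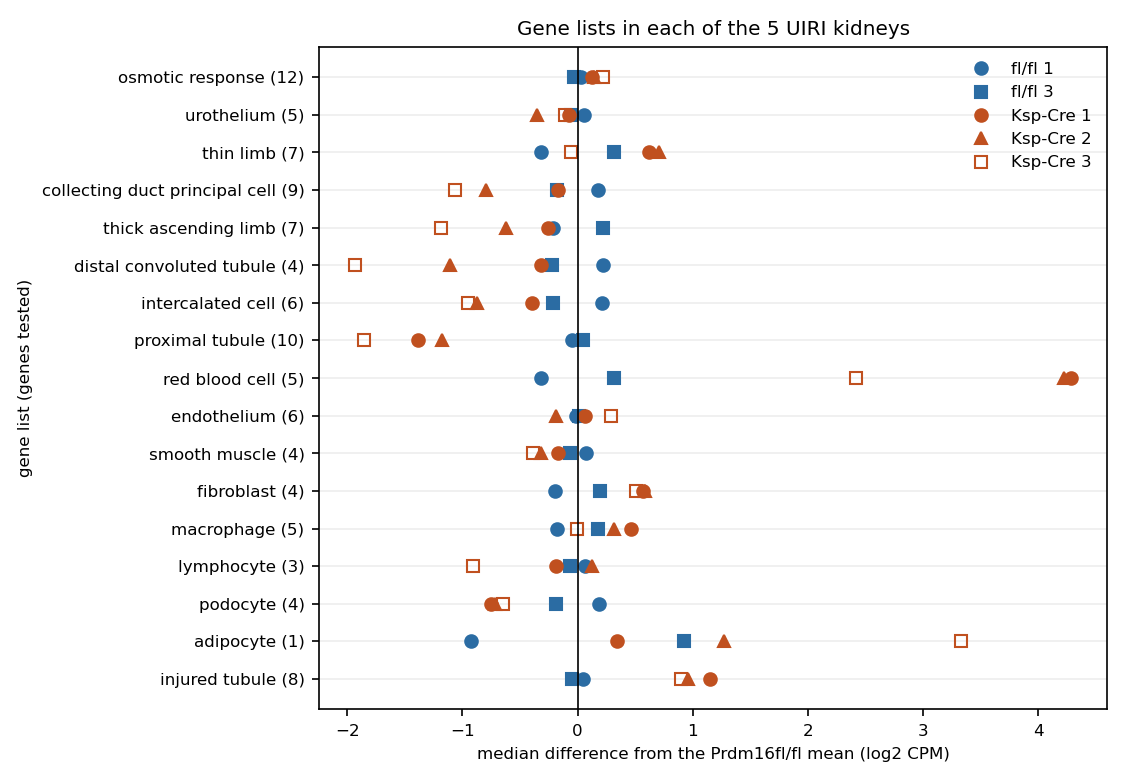
Median difference of each gene list from the mean of the 2 Prdm16fl/fl libraries, in log2 CPM, with 1 point per kidney (Prdm16fl/fl blue, Ksp-Cre/Prdm16fl/fl orange, a shape for each mouse, mouse 3 of the latter as an open square) and the number of genes tested in brackets. The proximal tubule list lies between -1.85 and -1.18 and the injured tubule list between 0.90 and 1.15 in the Ksp-Cre/Prdm16fl/fl mice, and the urothelium and osmotic response lists lie between -0.35 and 0.22.

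Lists of other cell types in the tissue are given as the background of the 10 genes. All 8 markers of injured tubules had a positive log2FC, with a median of 1.14, and all 5 of red blood cells, with a median of 3.93. The 4 fibroblast markers had a median of 0.54, the 5 macrophage markers of 0.24 (0.40 without Ksp-Cre/Prdm16fl/fl mouse 3) and the 6 endothelial markers of 0.0094 (-0.052 without that mouse). The thick ascending limb (7 genes, median -0.71, and -0.44 without that mouse), the distal convoluted tubule (4 genes, -1.0), intercalated cells (6 genes, -0.82) and podocytes (4 genes, -0.74) had negative values for every gene tested. Smooth muscle, which surrounds the pelvis, had a median of -0.30 over 4 genes tested, and lymphocytes of -0.26 over 3 (-0.021 without that mouse). Of 4 fat markers only Cidec could be tested, at 2.26. In these lists edgeR called 0 genes. At an unadjusted p of 0.05 there were 7 injured tubule genes, 5 red blood cell genes, 3 each of the thick ascending limb, intercalated cells, fibroblasts and podocytes, 1 each of the distal convoluted tubule, endothelium and smooth muscle, and 0 of the rest. The genes DESeq2 called included 5 injured tubule and 5 red blood cell genes and, named after their values were seen, Egf and Slc26a4.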

How the data were processed

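RNA-seq of kidneys from 5 mice with UIRI was analysed, grouped by genotype as the sample labels give it. After filtering out adapter-bearing and poor reads, the authors deposited for every gene a raw count, which is not normalized. The submitters' processing notes name CASAVA, featureCounts 2.0.1, DESeq2 1.16.1 and the build hg38, which is human, whereas the files list mouse genes. The aligner, mouse build and strand setting are not given in the sources used here. The deposited TPM and the deposited FPKM follow from the count and the merged exon length. Coordinates are those of the files and differ from GRCm38.

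Mitochondrially encoded genes are not analysed here. Lines broken in the files (5 genes) were rejoined. Counts were filtered with filterByExpr, scaled with TMM and tested with the quasi-likelihood test of edgeR 4.0.16 (R 4.3.3) over 16394 genes, with Benjamini-Hochberg adjustment over all of them. Exact permutation of 2 and 3 mice cannot give a one-sided p under 0.1. Alternatives were library size or RLE scaling, DESeq2 1.42.0, other filters, limma 3.58.1 on log2(FPKM + 1) and log2(FPKM + 0.1), each mouse left out, and the mouse number as a block. List medians without 1 mouse were added after the values were seen. The test was checked on simulated counts. The log2 CPM of list medians used a prior count of 2.

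The 10 genes and the 17 lists were chosen with earlier results of these data known. Named from each list were the genes called, or else up to 4 with the highest mean CPM, though not all are named here. Genes outside this rule are marked in the text, and the values of a few list genes are not reported here. The genes most like Slc14a2 and Upk1b were the 5 with the smallest root mean square difference in centred log2 CPM. Intervals and limits cover counting error only.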

Additional observations from a re-analysis of the deposited data

How the results depend on the processing

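Of the 111 values of the 9 tested members under the alternatives, 101 kept their direction and their side of the threshold, and 3, all of Upk1b, passed it where the reported value did not. The other 7 were those of Psca, whose sign turned to 0.089 with library size scaling, 0.046 and 0.058 with limma on log2(FPKM + 1) and log2(FPKM + 0.1), and 0.16 with the replicate block, and which ranged from -0.26 to 0.18 with each mouse left out. The number of members called was 0 in all but 3 settings: it was 1 with DESeq2, 1 without the filter on low counts, and between 0 and 1 with each mouse left out, the 1 being without Ksp-Cre/Prdm16fl/fl mouse 3. The number of all genes called, 116, was 46 with library size scaling, 55 and 43 with limma on log2(FPKM + 1) and log2(FPKM + 0.1), 495 with DESeq2 and 287 without the filter. It ranged from 0 to 733 with each mouse left out, 733 with mouse 3 of the Ksp-Cre/Prdm16fl/fl group left out and 0 with any other mouse left out, and the lone mouse left in a Prdm16fl/fl group is then assumed to vary like the others. The cause of these shifts was not tested. With the replicate block, 0 genes and 0 members were called. Deviations of same-numbered mice from their group mean had a correlation of 0.0010 for mice 1 and -0.022 for mice 3. With 2 Prdm16fl/fl mice these deviations mirror each other, so the correlations cannot decide whether the numbers pair the mice. Slc14a2, Slc14a1, Upk1b, Psca and Slc6a12 had 715, 172, 43, 121 and 9 counts over all 5 libraries, which limits what can be said of them.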

Other observations

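The 5 genes closest in pattern to Slc14a2 over the 5 libraries, among 13872 genes compared, were Arg2, Alx1, Lox, Lgi2 and Fndc1, with root mean square differences from 1.03 to 1.099 in log2 CPM, so none followed it tightly. Arg2, the mitochondrial arginase that releases urea from arginine, had 10.3 and 29.8 CPM in Prdm16fl/fl mice 1 and 3, against 32.9, 37.2 and 117 CPM in mice 1 to 3 of the Ksp-Cre/Prdm16fl/fl group. Lox, a collagen crosslinking enzyme, was at 9.37 and 13.9 CPM against 39.2, 31.8 and 99.5 CPM. In both, as in Slc14a2, Prdm16fl/fl mouse 1 was lowest and Ksp-Cre/Prdm16fl/fl mouse 3 highest. Alx1 and Fndc1 did not share that order. In Ksp-Cre/Prdm16fl/fl mice 1 to 3 Alx1 was at 5.11, 6.14 and 3.26 CPM and Fndc1 at 6.98, 6.79 and 4.53 CPM. The 5 genes were picked for likeness, so a shared order is no separate result.

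The genes closest to Upk1b were Slco1a1, Inmt, Gm34472, Dnase1 and Pzp, with differences from 0.253 to 0.478. Upk1b had 0, 2 and 1 counts in the Ksp-Cre/Prdm16fl/fl mice, so its log2 CPM there rests largely on the prior count of 2. The genes compared had a mean log2 CPM of at least 1, a level that Upk1b did not reach. Slco1a1, an organic anion transporter of the proximal tubule, was at 109 and 86.7 CPM against 8.97, 14.3 and 18.8 CPM. Inmt, a methyltransferase, was at 159 and 204 CPM against 14.9, 18.8 and 25.7 CPM. These likenesses describe 5 libraries and carry no test.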
